A study of Mus musculus with 6 samples.

Results

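Sinusoidal endothelial cells line the capillaries of the liver. They have open pores and no continuous basement membrane, and they take up waste molecules from the blood through scavenger receptors. The 10 transcripts followed here mark these cells in mouse liver and were taken by gene symbol from the deposited count table, where all 10 were found among 54532 genes. They encode the scavenger and hyaluronan receptors Stab1, Stab2 and Lyve1, the lectin Clec4g, the inhibitory Fc receptor Fcgr2b, the endocytic recycling protein Ehd3, the secreted protein Oit3, the chemokine-binding receptor Gpr182, the junction protein Pecam1 and the vascular endothelial growth factor (VEGF) receptor Kdr. Endothelial cells carry insulin receptors, and insulin reaches hepatocytes across this layer.

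The livers came from 6 male C57BL/6J mice with insulin resistance (IR), produced by 6 weeks of high-fat feeding from 8 weeks of age. All mice were fasted for 16 h. The IR insulin group (n = 3) then received 0.75 units of insulin per kg body weight into the peritoneum, and the IR vehicle group (n = 3) received the BSA vehicle. Livers were collected 6 h later and total RNA of whole tissue was sequenced, so there was no enrichment of endothelial cells and no chow-fed group among these libraries. In such bulk samples, fewer endothelial cells and less RNA per cell cannot be told apart.

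The libraries held 18449986 to 21827619 counts. All 10 transcripts were measured well above the filter on low counts, with 117 to 1374 reads per gene and library, and together they took 0.0187 to 0.0417% of each library. Across genes, which do not count as replicates, Pearson's r between log2 profiles was 0.98 to 0.985 within the insulin group and 0.878 to 0.948 within the vehicle group. Vehicle replicates 2 and 3 stood apart from the other libraries, and calls among the 10 transcripts, or in the lists read beside them, are also given without these libraries. Levels below are CPM, a gene's counts relative to the TMM-adjusted total of its library, and log2 fold changes are IR insulin against IR vehicle, positive when higher with insulin.

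The promoters of Stab1, Clec4g and Kdr are shown because these genes stand for 3 roles (scavenging, lectin binding and growth factor sensing) and differ in base composition. Each is the stretch of up to 250 bases before the RefSeq start of the gene (build GRCm38.p6, minus strand of the chromosome, written 5′ to 3′ along the gene) that lies outside the annotated gene. Capitals mark matches to the ETS, SOX or KLF letters given below.
Stab1, chr14:31168642-31168891: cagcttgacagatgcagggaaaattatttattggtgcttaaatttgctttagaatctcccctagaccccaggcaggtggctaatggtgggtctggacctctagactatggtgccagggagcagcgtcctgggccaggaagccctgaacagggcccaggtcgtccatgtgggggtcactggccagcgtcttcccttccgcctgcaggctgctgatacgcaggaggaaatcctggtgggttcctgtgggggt
Clec4g, chr8:3720652-3720901: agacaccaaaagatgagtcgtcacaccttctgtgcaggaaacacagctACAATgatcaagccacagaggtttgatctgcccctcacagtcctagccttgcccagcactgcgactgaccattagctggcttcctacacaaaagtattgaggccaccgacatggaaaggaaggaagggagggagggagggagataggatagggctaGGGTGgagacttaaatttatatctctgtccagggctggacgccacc
Kdr, chr5:75978459-75978705: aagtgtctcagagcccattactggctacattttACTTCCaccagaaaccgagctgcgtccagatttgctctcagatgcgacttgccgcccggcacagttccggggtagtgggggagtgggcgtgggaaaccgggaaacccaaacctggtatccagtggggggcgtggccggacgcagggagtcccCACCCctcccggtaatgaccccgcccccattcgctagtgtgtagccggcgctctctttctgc

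The RefSeq table held promoters for 6 of the 10 genes, those of Stab1, Stab2, Clec4g, Kdr, Fcgr2b and Ehd3. Letters recognised by 4 factor families with roles in endothelium were searched on both strands of the 250 bases before the start. These windows were not cut to the part outside the annotated gene. Those of Fcgr2b and Ehd3 lay wholly inside it, and those of Stab2 and Kdr in part. The ETS letters GGAAGT occurred in 2 of the 6 (Kdr and Fcgr2b), against 19.7% of the 32851 promoters in the table. The SOX letters ACAAT occurred in 2 (Clec4g and Fcgr2b), against 27.7%, the KLF letters CACCC in 3 (Clec4g, Kdr and Fcgr2b), against 52.0%, and the GATA letters GATAA in 0, against 22.6%. The Stab1, Stab2 and Ehd3 windows held none of the 4. Base composition differed as well, from 45.2% GC at Fcgr2b to 61.6% at Kdr, with 3 CpG sites at Stab2 and 16 each at Kdr and Ehd3.

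None of the 10 transcripts passed the test between IR insulin and IR vehicle. In each of them the values of the groups overlapped, whereas the groups stood apart for 12.3% of the 13377 genes tested (6.25% higher and 6.04% lower with insulin). By the criteria of the study (unadjusted p under 0.05 with a log2 change of 0.35 or more in size) 0 of the 10 were called, against 2.86% of all genes (1.0% higher and 1.86% lower with insulin), and 0 had an unadjusted p under 0.05. The smallest adjusted p among them was 0.852 (edgeR's quasi-likelihood test, Benjamini-Hochberg method, all tested genes), which was also the smallest of any gene. DESeq2 called 0 of the 10 as well, against 3.79% of all genes (2.68% lower with insulin), and so did voom, against 1.59%. Other scalings (2.61 and 3.0% of all genes called), no filter on low counts (3.22%), a replicate block (2.4%) and leaving out insulin replicate 1, 2 or 3 (0.727, 1.05 and 0.875%) also gave 0 calls among the 10. A block with a GC offset gave 1 (2.5%), a GC offset without vehicle replicate 3 gave 0 (5.21%), and leaving out vehicle replicates 2 and 3 gave 1 (2.13%). With fewer libraries, groups stood apart for more genes. Of the 10 transcripts, 2 stood apart without vehicle replicate 1 (30.5% of all genes), 0 without vehicle replicate 2 (19.0%) and 1 without vehicle replicate 3 (31.0%). Without insulin replicates 1, 2 and 3 in turn, 1, 2 and 0 did (18.0, 19.8 and 19.2%). The count was 1 with a GC offset and no vehicle replicate 3 (22.4%), and 1 without vehicle replicates 2 and 3 (47.8%). Of the log2 fold changes, 2 were positive and 8 negative. Their median was −0.10, against −0.02 over all genes, and their median absolute value was 0.15, against 0.29.

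**Figure D1:**
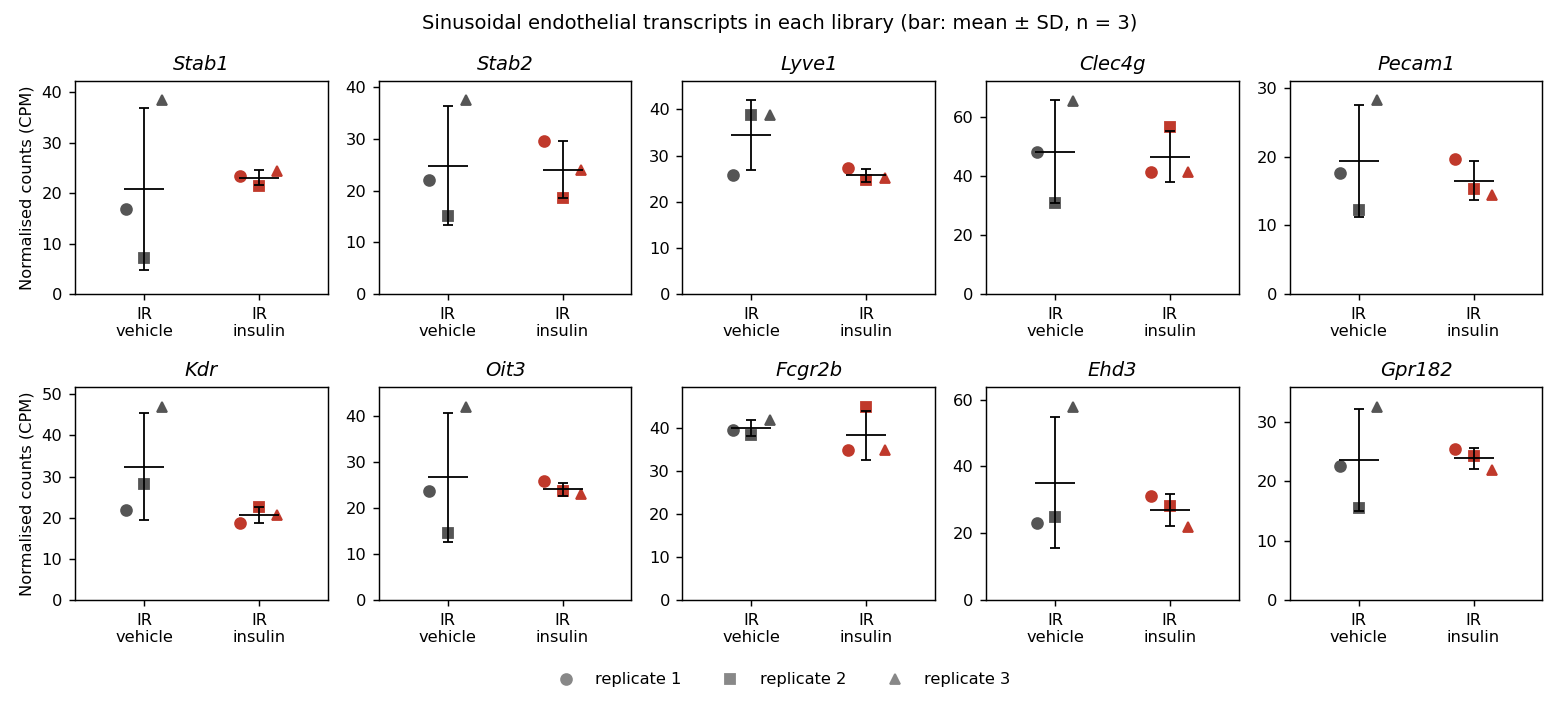
Normalised counts (CPM, linear axis from 0) of the 10 transcripts in each library. Grey points are vehicle libraries and red points insulin libraries, the shape gives the replicate, and bars show the mean ± SD of 3 libraries. Vehicle replicate 3 (grey triangle) is the highest of the 6 libraries for 8 of the 10 transcripts, and the insulin libraries lie close together.

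The scavenger receptors showed how wide the vehicle group was. Stab1 encodes stabilin-1, which clears oxidised lipoproteins and matrix fragments (chromosome 14, 31139013 to 31168641, minus strand). Its level was 16.9, 7.18 and 38.4 CPM in vehicle replicates 1, 2 and 3 and 23.4, 21.5 and 24.5 CPM with insulin. The vehicle values thus spanned a 5.35-fold range and lay on both sides of the insulin values, which spanned 1.14-fold. The log2 fold change of Stab1 was 0.15 ± 0.52 (SE; unadjusted p 0.779), the largest SE among the 10. Without vehicle replicate 3 it was 0.94 (unadjusted p 0.0402, where 6.51% of all genes were called), and without vehicle replicate 2 it was −0.25 (unadjusted p 0.448), so its direction changed with the vehicle liver left out.

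Stab2 encodes stabilin-2, the main receptor through which liver clears hyaluronan (chromosome 10, 86841198 to 87008025, minus strand). Its level was 22.0, 15.2 and 37.5 CPM in vehicle livers and 29.7, 18.6 and 24.0 CPM with insulin. For Stab2 the fold change was −0.05 ± 0.36 on the log2 scale (unadjusted p 0.897), and it became 0.37 without vehicle replicate 3 and −0.30 without vehicle replicate 2. The order of the vehicle libraries was the same as for Stab1, with replicate 3 highest and replicate 2 lowest.

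Lyve1, another hyaluronan receptor (chromosome 7, 110850607 to 110863239, minus strand), had a different order. It was at 25.7, 38.8 and 38.8 CPM in vehicle livers and at 27.4, 24.8 and 25.1 CPM with insulin. Vehicle replicates 2 and 3 were both above all insulin libraries, and vehicle replicate 1 was among them. Its log2 fold change was −0.42 ± 0.24 (unadjusted p 0.116). It was −0.59 without vehicle replicate 1 (unadjusted p 0.0329, in a fit that called 9.81% of all genes) and −0.32 without either of the other vehicle libraries.

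Clec4g encodes the sinusoidal lectin that binds glycans of pathogens and of activated T cells (chromosome 8, 3707064 to 3720651, minus strand). Its level was 48.2, 30.8 and 65.5 CPM in vehicle livers and 41.5, 56.5 and 41.5 CPM with insulin. The groups had nearly equal means, 48.2 ± 17.4 and 46.5 ± 8.65 CPM (SD, n = 3), and the log2 fold change was −0.05 ± 0.31 (unadjusted p 0.869). Fcgr2b, which encodes the inhibitory Fc receptor that removes immune complexes from blood (chromosome 1, 170958617 to 170976547, minus strand), varied least. Its level was 39.4, 38.2 and 41.9 CPM in vehicle livers and 34.8, 44.9 and 34.9 CPM with insulin. The 6 libraries fell within a 1.29-fold range, and Fcgr2b was the only one of the 10 with a wider spread in the insulin group than in the vehicle group. Its log2 fold change was −0.06 ± 0.21 (unadjusted p 0.772). Fcgr2b is also expressed by B cells and macrophages and resembles Fcgr3 in sequence, so its reads are not particular to endothelium.

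Ehd3, an ATPase of endosomal recycling (chromosome 17, 73804134 to 73832094, plus strand), was at 23.0, 24.8 and 57.9 CPM in vehicle livers and at 31.3, 28.1 and 21.9 CPM with insulin. Vehicle replicate 3 alone was above the insulin range, and the log2 fold change of −0.38 ± 0.38 (unadjusted p 0.351) became 0.18 without it. Oit3, a secreted protein with a zona pellucida domain (chromosome 10, 59422958 to 59441778, minus strand), was at 23.6, 14.5 and 42.0 CPM in vehicle livers and at 25.8, 23.6 and 23.1 CPM after insulin. Its log2 fold change was −0.15 ± 0.37 (unadjusted p 0.702), and 0.34 without vehicle replicate 3. Gpr182, an atypical receptor that binds chemokines without G-protein signalling (chromosome 10, 127747276 to 127751732, minus strand), was at 22.6, 15.5 and 32.6 CPM in vehicle livers and at 25.5, 24.2 and 22.0 CPM with insulin. For Oit3 and Gpr182 the insulin libraries lay within a 1.11-fold and a 1.16-fold range, inside vehicle values that spanned 2.9-fold and 2.11-fold. The log2 fold change of Gpr182 was 0.02 ± 0.29 (unadjusted p 0.951).

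Pecam1 encodes the adhesion molecule CD31 of endothelial junctions, which leukocytes and platelets carry too (chromosome 11, 106654217 to 106750628, minus strand). Its level was 17.7, 12.2 and 28.2 CPM in vehicle livers and 19.7, 15.3 and 14.4 CPM with insulin, a log2 fold change of −0.24 ± 0.33 (unadjusted p 0.496). Vehicle replicate 3 was again the highest library and vehicle replicate 2 the lowest. Kdr, the main signalling receptor for VEGF-A (chromosome 5, 75932827 to 75978458, minus strand), came nearest to a difference. It was at 22.0, 28.2 and 47.0 CPM in vehicle livers and at 18.7, 22.7 and 20.7 CPM with insulin, so the groups met at vehicle replicate 1. The means were 32.4 ± 13.0 and 20.7 ± 2.0 CPM (SD, n = 3), and the log2 fold change was −0.65 ± 0.31 (unadjusted p 0.0688). The unadjusted p of Kdr fell to 0.0241 without vehicle replicate 1, 0.0436 without vehicle replicate 2 (3.69% of all genes called) and 0.0425 with an offset for GC content (3.53% called). Leaving out vehicle replicate 3 raised it to 0.275, at a log2 fold change of −0.28. The sign of Kdr was negative in all 16 alternative fits, from −0.86 to −0.08, and its adjusted p was never below 0.506.

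**Figure D2:**
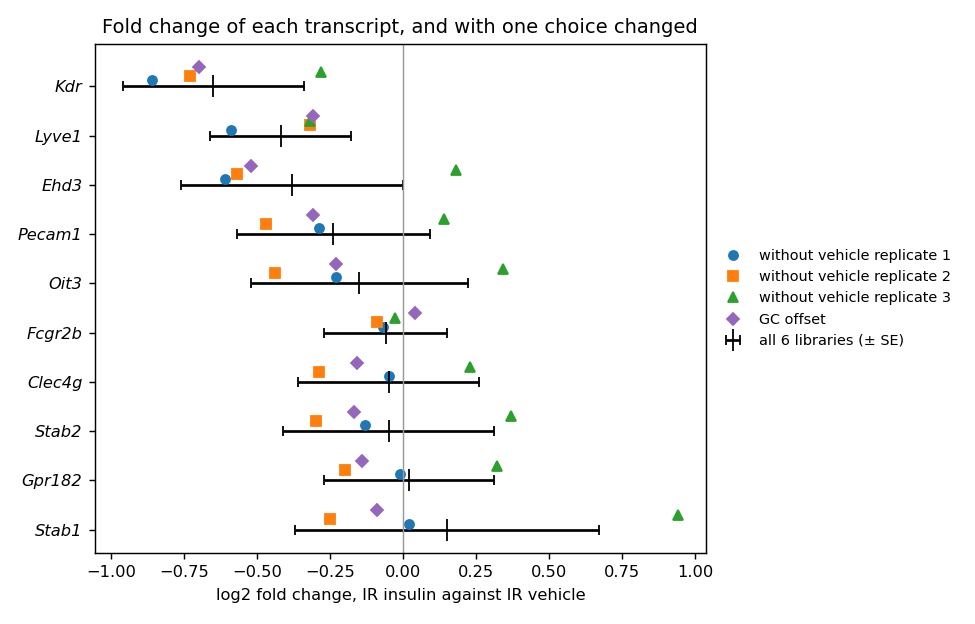
Log2 fold change of each transcript, IR insulin against IR vehicle. The black tick and bar give the value ± SE from all 6 libraries (edgeR), and coloured points the value with 1 vehicle library left out or with an offset for GC content. Leaving out vehicle replicate 3 (green triangles) moves most transcripts to the right, to 0.94 for Stab1.

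Compared per length of the longest transcript, Clec4g was the most abundant of the 10. It had 32.8 ± 8.53 CPM per kilobase (mean ± SD over 6 libraries), with every library above the highest value of Fcgr2b, which followed with values from 9.82 to 12.7. The other 8, in the order Lyve1, Oit3, Ehd3, Gpr182, Pecam1, Kdr, Stab2 and Stab1, fell from 10.4 ± 2.35 to 2.75 ± 1.28. From Fcgr2b downward, each gene's range over the libraries overlapped that of the next. Stab1 and Stab2 have the longest transcripts, 7999 and 8228 bases in 69 exons each, and were the lowest per length. This order leans on the length used as divisor (Spearman's correlation of level and length −0.842 over the 10). In mean CPM, Stab1 (22.0) and Stab2 (24.5) were above Pecam1 (17.9).

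Several of these loci share sequence with a gene on the opposite strand, and the sources do not state whether counting used strand. Stab1 overlaps Nt5dc2, which had 67 to 157 counts in a library, and Gpr182 overlaps Zbtb39, with 97 to 185. The non-coding genes that overlap Stab2, Clec4g and Fcgr2b had at most 4 counts in any library. No overlapping gene was annotated for Lyve1, Pecam1, Kdr, Oit3 or Ehd3.

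The 10 transcripts varied more among the vehicle livers than between the treatments. Their summed level was 261.1, 225.4 and 429.8 CPM in vehicle replicates 1, 2 and 3, and 277.6, 280.1 and 252.0 CPM in the insulin libraries. Vehicle replicate 3 was the highest of the 6 libraries for 8 transcripts, where it was the highest for 23.4% of all genes tested. All 10 lay above the median of the other libraries there, by 0.13 (Fcgr2b) to 1.22 (Ehd3) on the log2 scale. Vehicle replicate 2 was the lowest library for 6 of the 10, and for 37.4% of all genes. Vehicle replicate 1 lay within the range of the insulin libraries for 9 transcripts, and for Stab1 it lay below it. The spread within the vehicle group exceeded that within the insulin group for 9 of the 10 transcripts (median SD on the log2 scale 0.58 against 0.17), as it did for 85.2% of all genes (0.52 against 0.18).

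In vehicle replicate 2 the deviations of the transcripts went with base composition in part, and the cause of these deviations was not tested. In this library the deviation of a gene from the median of the other 5 fell with the GC content of its longest transcript, by 1.13 on the log2 scale per 10 percentage points over 13367 genes, while in the other libraries the slope was between −0.06 and 0.19. The 10 endothelial transcripts had a median of 51.1% GC, against 49.3% for all genes tested, and ran from 45.4% for Fcgr2b and 45.8% for Lyve1 to 57.3% for Stab1. Stab1 deviated by −1.69 in vehicle replicate 2, below the medians of the bins of all genes nearest to it in GC content (−1.02 and −1.19). Lyve1 deviated by 0.59 there, and Kdr, at 49.4% GC, by 0.36. The 6 transcripts between 50.2 and 52.7% GC deviated by −0.70 to −0.18. Bins of all genes with medians of 49.8 to 52.7% GC had medians of 0.01 to −0.43. Of these 6 transcripts only Ehd3 (−0.18, at 52.2% GC) lay above its nearest bins (−0.25 and −0.43). Fcgr2b deviated by −0.04, where the bin of all genes nearest to it (median 45.1% GC) had a median of 0.48.

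**Figure D3:**
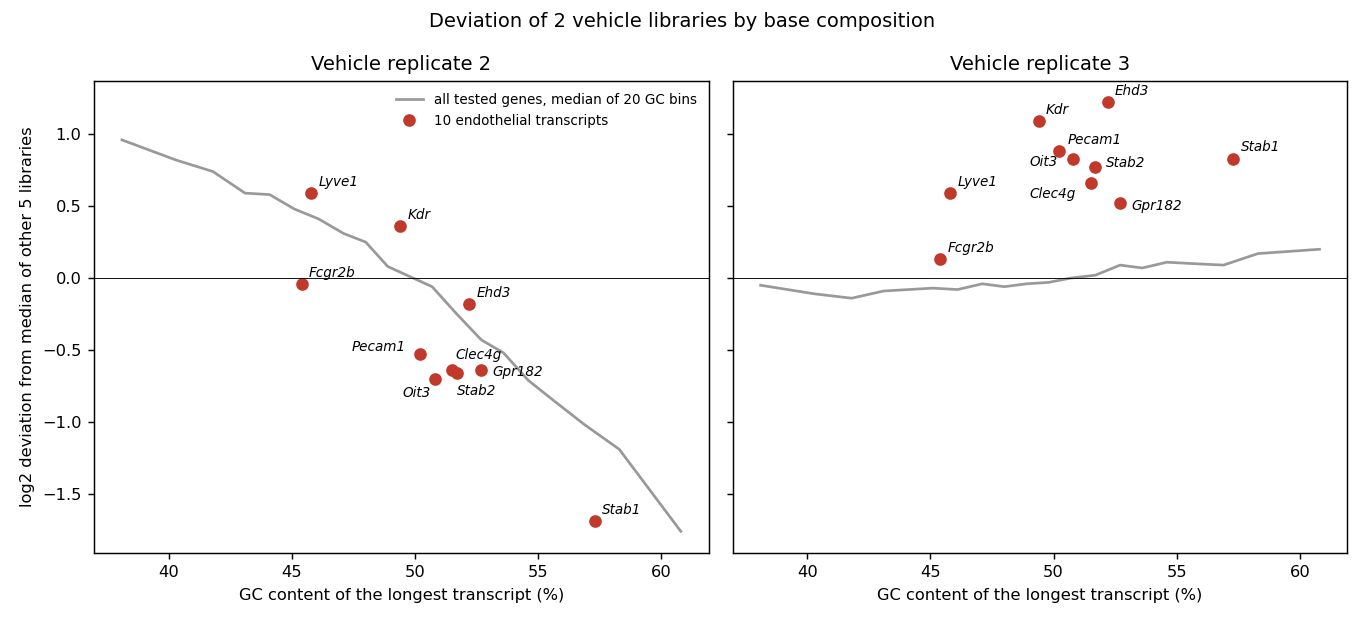
Log2 deviation of each library from the median of the other 5, against the GC content (%) of the longest transcript. Red points are the 10 endothelial transcripts, and the grey line joins the medians of bins of all tested genes ordered by GC content. In vehicle replicate 2 the transcripts run from Lyve1 (0.59) down to Stab1 (−1.69), as the line falls. Lyve1, Kdr (0.36) and Ehd3 (−0.18) lie above the line there. Fcgr2b (−0.04), Pecam1 (−0.53), Oit3 (−0.70), Clec4g (−0.64), Stab2 (−0.66), Gpr182 (−0.64) and Stab1 lie below it. In vehicle replicate 3 all 10 lie above a nearly flat line.

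In values adjusted for GC content vehicle replicate 3 stayed apart, and the median deviation of the 10 in vehicle replicate 2 went from −0.59 to −0.31. With the adjustment the summed level was 256.4, 244.4 and 427.4 CPM in vehicle livers and 264.7, 275.2 and 242.4 CPM with insulin. Stab1 became 13.9 CPM in vehicle replicate 2, from 7.18, against 15.9 to 33.3 CPM elsewhere. Other transcripts moved away from the other libraries in vehicle replicate 2, Fcgr2b from −0.04 to −0.35, Kdr from 0.36 to 0.42 and Ehd3 from −0.18 to 0.22, and this library was still the lowest for 5 of the 10. Vehicle replicate 3 was then the highest library for 9 of the 10 transcripts, against 26.3% of all genes, with deviations of 0.30 to 1.15. The exception was Fcgr2b, at 45.5 CPM there and 46.3 CPM in insulin replicate 2.

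The transcripts moved together across the 6 libraries to different degrees. Among the 45 pairs, Pearson's r of log2 levels had a median of 0.615, from −0.224 to 0.981, with 16 pairs above 0.8. These points share the same libraries, their depth and the base composition of vehicle replicate 2. Without vehicle replicate 3 the median was 0.194, with 18 pairs below 0. With GC adjustment and all 6 libraries it was 0.719, with 0 pairs below 0. Oit3, Pecam1, Ehd3 and Gpr182 followed the mean of the other 9 most closely (r 0.929, 0.918, 0.913 and 0.873), and Lyve1 and Fcgr2b least (0.207 and 0.329). Among the other genes with at least 5 CPM, those most like their mean included Aqp1 (r = 0.993) and Aldh7a1, Aspg and Tk1 (each at r = 0.992). Aqp1, a water channel of sinusoidal endothelium and bile ducts, was at 89.5, 73.2 and 187 CPM in vehicle livers and at 89.8, 96.7 and 82.1 CPM with insulin. The median r with the mean of the 10 was 0.414 for 13 other sinusoidal transcripts and 0.748 for 22 genes of all endothelium. It was 0.658 for 8 hepatocyte markers and 0.619 for 10 Kupffer cell markers, against 0.0143 over all genes. Likeness to the 10 was thus not particular to endothelial genes.

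Other genes with roles in or around endothelium were read in 9 lists that hold 120 genes beside the 10. The RNA was from whole liver, so their values are not those of endothelial cells alone. Of the 105 genes tested, 3 were called by the criteria of the study (2.86%), which is the share over all genes, and 0 had an adjusted p under 0.05. The 3 were Mrc1, Nrp2 and Col4a2. Mrc1, the mannose receptor of sinusoidal endothelium and macrophages, was lower with insulin. It was at 25.5, 41.4 and 48.2 CPM in vehicle livers and at 24.2, 26.3 and 21.0 CPM with insulin, a log2 fold change of −0.69 ± 0.28 (unadjusted p 0.0394, adjusted p 0.852). As for Lyve1 and Kdr, vehicle replicate 1 was level with the insulin libraries. The call of Mrc1 was lost with a GC offset (−0.54, unadjusted p 0.0948), with voom (0.19), with the replicate block (0.076) and in all fits without 1 library except that without vehicle replicate 1 (−0.91, unadjusted p 0.00739). Beside Mrc1 in the list of 14 other sinusoidal transcripts, of which 13 were tested, Rasgrp3, a Ras activator, had the next smallest p (−0.71 ± 0.33, unadjusted p 0.0641), without overlap of the groups. In that list 2 log2 fold changes were positive and 11 negative, with a median of −0.34, against −0.02 over all genes. Leaving out vehicle replicate 2 gave a list median of −0.35, and leaving out vehicle replicate 3 gave −0.19. Rasgrp3 was at −0.51 without vehicle replicate 2 (unadjusted p 0.131) and at −0.68 without vehicle replicate 3 (0.104).

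Genes shared by endothelium of all vessels were also high in vehicle replicate 3. Of 22 genes, 16 were highest in vehicle replicate 3 and 15 lowest in vehicle replicate 2, and 0 were called. The smallest p values belonged to the tetraspanin Tspan7 (−0.57 ± 0.28, unadjusted p 0.0802) and the angiopoietin receptor Tek (−0.60 ± 0.31, unadjusted p 0.0930). Tek was at 7.30, 8.90 and 14.7 CPM in vehicle livers and at 6.84, 7.23 and 6.37 CPM with insulin, all below the vehicle values. Leaving out vehicle replicate 3 gave −0.25 for Tek (unadjusted p 0.368) and −0.37 for Tspan7 (0.232), and leaving out vehicle replicate 2 gave −0.69 (0.0543) and −0.51 (0.107). Over the 22 genes the median log2 fold change was −0.07 (8 positive and 14 negative). It was −0.39 without vehicle replicate 2 (3 and 19) and 0.34 without vehicle replicate 3 (15 and 7), so the list had no stable direction. In the VEGF and angiopoietin list, 12 of 16 genes were tested and 1 was called, Nrp2, a co-receptor for VEGF-C and semaphorins. Nrp2 was at 14.6, 12.7 and 9.63 CPM in vehicle livers and at 17.4, 23.0 and 18.7 CPM with insulin, without overlap. Its log2 fold change was 0.68 ± 0.25 (unadjusted p 0.0261, adjusted p 0.852). It was 0.55 with a GC offset (unadjusted p 0.0438), and the call was lost without vehicle replicate 3 (0.0664), insulin replicate 2 (0.117) or insulin replicate 3 (0.0541). The ligand Vegfa, named after its values were seen because it activates Kdr, was at 34.6, 17.3 and 61.5 CPM in vehicle livers and at 42.1, 32.2 and 42.9 CPM with insulin, a log2 fold change of 0.05 ± 0.42 (unadjusted p 0.915).

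Among 18 angiocrine ligands and zone markers of the sinusoid 0 were called. The smallest p values were those of Bmp2, the ligand through which these cells set hepcidin in hepatocytes (−0.58 ± 0.28, unadjusted p 0.0722), and of the ephrin Efnb1 (0.67 ± 0.44, unadjusted p 0.167). Bmp2 was at 14.9, 19.2 and 27.3 CPM in vehicle livers and at 12.2, 15.7 and 13.3 CPM with insulin, overlapping at vehicle replicate 1. The log2 fold change of Bmp2 was −0.31 without vehicle replicate 3 (unadjusted p 0.246) and −0.62 without vehicle replicate 2 (0.0542). A GC offset gave −0.76 (0.0194), which was a call. Of 13 tested genes of continuous or activated endothelium, the basement membrane collagen Col4a2 was called. It was at 21.1, 12.9 and 12.9 CPM in vehicle livers and at 23.7, 24.1 and 25.0 CPM with insulin, a log2 fold change of 0.63 ± 0.26 (unadjusted p 0.0411, adjusted p 0.852), which was −0.08 with a GC offset (unadjusted p 0.839). The unadjusted p of Col4a2 was 0.0065 without vehicle replicate 1 and 0.0523 to 0.105 without any other single library. Icam1, the leukocyte adhesion molecule, followed at 0.54 ± 0.30 (unadjusted p 0.106), and was at 0.2 with a GC offset.

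The remaining lists held 0 called genes. Among 7 genes of the response to flow the smallest p values belonged to the mechanosensitive channel Piezo1 (0.62 ± 0.34, unadjusted p 0.108) and to haem oxygenase Hmox1 (0.91 ± 0.59, unadjusted p 0.162). Among 10 tested genes of insulin signalling, measured in whole liver, they belonged to Foxo1 and to the kinase Akt1. Foxo1, the transcription factor that insulin inhibits, was at −0.45 ± 0.25 (unadjusted p 0.114) and Akt1 at 0.41 ± 0.32 (unadjusted p 0.234). Among 7 tested rows for chemokines and atypical chemokine receptors, the class of Gpr182, they were Ackr4 (0.28 ± 0.49, unadjusted p 0.588) and Cxcl13 (0.35 ± 0.63, unadjusted p 0.595). Among 9 tested genes for hyaluronan turnover and stabilin ligands they were Lgals3bp (0.37 ± 0.30, unadjusted p 0.243) and the hyaluronidase Cemip2, listed in the count table as Tmem2 (−0.26 ± 0.21, unadjusted p 0.263). With a GC offset Piezo1 went to 0.01, Akt1 to −0.09 and Lgals3bp to 0.03. Hmox1 was then at 0.77, Foxo1 at −0.45, Ackr4 at 0.37, Cxcl13 at 0.6 and Cemip2 at −0.32.

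Markers of other cells moved in vehicle replicates 2 and 3 as well, and their part in the values above was not tested. Over 10 Kupffer cell genes, led by Cd5l, the summed level was 299 to 576 CPM in vehicle livers and 407 to 750 CPM with insulin, highest in insulin replicate 1. Over 10 stellate cell genes, led by Dcn, it was 268 to 326 and 205 to 363 CPM, and over 8 hepatocyte genes 64700 to 153000 and 53600 to 68900 CPM, most of it Alb. In vehicle replicate 3 the median deviation was 0.80 for the 10 endothelial transcripts, 0.54 for the Kupffer list, 0.60 for the hepatocyte list and −0.09 for the stellate list. The neutrophil list, with S100a8 at 1.43 CPM there and 13.7 to 50.3 CPM elsewhere, summed to 3.67 CPM in vehicle replicate 3 and to 28.7 to 76.5 CPM in the other libraries. Lymphatic vessels also express Lyve1. Of their markers, Mmrn1 and Ccl21a did not pass the filter on low counts. The list's level (141 to 387 CPM) was mostly Prox1, which hepatocytes express. Pdpn, named after its values were seen, passed the filter. It was at 8.53 CPM in vehicle replicate 2 and at 0.909 to 2.16 CPM elsewhere, while Lyve1 was at 38.8 CPM in vehicle replicates 2 and 3. Prox1 was also highest in vehicle replicate 2, at 352 CPM against 116 to 173 CPM elsewhere. The other markers that passed, Reln and Thy1, also named after their values were seen, were not. Reln was at 25.7 CPM there (15.7 to 25.9 CPM elsewhere) and Thy1 at 0.246 CPM (0.238 to 1.17 CPM elsewhere). B cells express Fcgr2b, and the B cell list, led by Igkc, was at 75.7 CPM in vehicle replicate 2 and at 4.61 to 19.4 CPM elsewhere, while Fcgr2b did not stand out there. The platelet list, led by Itga2b, whose cells carry Pecam1, was at 2.31 to 4.96 CPM. The list for T and NK cells, led by Gzma, was at 1.29 to 3.19 CPM, and that for cholangiocytes, led by Spp1, at 19.8 to 50.8 CPM. The erythroid list, led by Hbb-bs, was at 413 to 1590 CPM with vehicle and 312 to 478 CPM with insulin, and 4 of its 5 genes were called lower, against 1.86% of all genes. All 5 were highest in vehicle replicate 2, and without it 0 were called and the median log2 fold change of the list went from −1.30 to −0.53. Without vehicle replicate 3 all 5 were called lower (4.86% of all genes), with a median of −1.59, and with a GC offset 4 were (2.83%). Among the other marker genes, those called were Cyp3a11 of the hepatocyte list (−1.76, unadjusted p 0.0380, and 0.23 without vehicle replicate 3) and Ms4a1 of the B cell list (−2.65, unadjusted p 0.0349, and 0.465 without vehicle replicate 2), named after their values were seen.

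**Figure D4:**
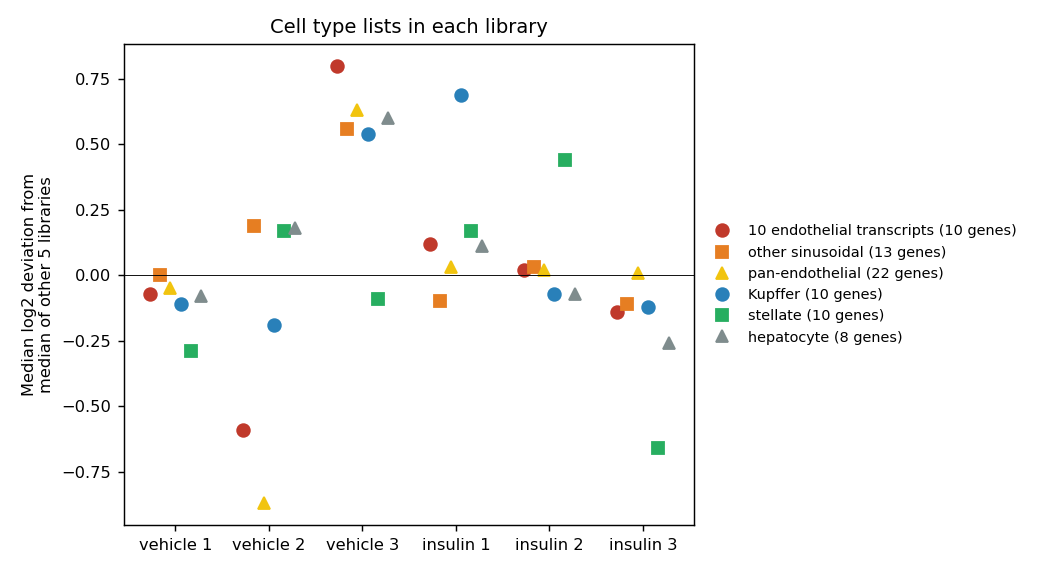
Median log2 deviation of 6 gene lists in each library from the median of the other 5 libraries. In vehicle replicate 3 the endothelial lists, at 0.80, 0.56 and 0.63, stand high together with the Kupffer and hepatocyte lists, and in vehicle replicate 2 the 10 transcripts (−0.59) and the pan-endothelial list (−0.87) stand low while the other sinusoidal transcripts are at 0.19.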

How the data were processed

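Liver RNA of 6 mice was made into NEBNext Ultra libraries and sequenced on a HiSeq instrument by the authors, who aligned reads with Bowtie2 version 2.2.3 to mm10 and deposited raw read counts per gene. The counting program, annotation and use of strand are not given in the sources used here. Groups came from the labels, and each library is 1 mouse. The deposited counts were tested with edgeR 4.0.16 (R 4.3.3): filterByExpr (minimum count 10, total 15), TMM scaling and the quasi-likelihood test, p values adjusted by the Benjamini-Hochberg method across 13377 genes. The study used DESeq2, which was run as an alternative (1.42.0), as were voom in limma 3.58.1, other scalings, no filter, a replicate block, an offset for GC content (loess, span 0.5, GC of the longest GENCODE transcript) and leaving out libraries. Log2 levels used a prior count of 2. Same-numbered libraries did not deviate together, which cannot decide whether the numbers pair mice. The main fit did not use the numbers as pairs. Only the main edgeR fit was run on simulated counts. These had less spread than the real libraries, no GC trend and no library that stood apart, so they do not show how the fits perform here.

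The members and lists were chosen with earlier results of these data known. Genes named are all 10 members, the 2 smallest p values of each of 9 lists, the 5 genes most like the members' mean (1 of them is not reported here) and the most abundant gene of the marker lists described. Rows of genes that share a symbol were kept apart. Promoters and coordinates are from RefSeq and GENCODE tables of build 38.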

Additional observations from a re-analysis of the deposited data

How the results depend on the processing

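Over 16 alternatives and 10 transcripts, 124 of 160 log2 fold changes kept their direction and their side of the threshold, 29 changed sign and 7 became called at an unadjusted p under 0.05. No adjusted p fell below 0.506. Kdr was called with the GC offset (−0.70) and on leaving out vehicle replicate 1 (−0.86) or 2 (−0.73), Lyve1 without vehicle replicate 1 (−0.59), and Stab1 without vehicle replicate 3 (0.94). Leaving out 1 library at a time gave ranges of −0.25 to 0.94 for Stab1, −0.30 to 0.37 for Stab2, −0.59 to −0.32 for Lyve1, −0.29 to 0.23 for Clec4g, −0.47 to 0.14 for Pecam1, −0.86 to −0.28 for Kdr, −0.44 to 0.34 for Oit3, −0.19 to 0.01 for Fcgr2b, −0.61 to 0.18 for Ehd3 and −0.20 to 0.32 for Gpr182. Over the same fits, 0 to 2 transcripts were called, 0 had an adjusted p under 0.05, 0 to 2 had groups that did not overlap (18.0 to 31.0% of all genes), the median log2 fold change ran from −0.31 (without vehicle replicate 2) to 0.21 (without vehicle replicate 3), the log2 ratio of the summed level ran from −0.35 to 0.15 around −0.18, and 0 to 16 genes of the 9 lists were called (16 of 107 without vehicle replicate 1, where 9.81% of all genes were called, and 0 of 108 without insulin replicate 3, where 0.875% were). The GC offset gave 1 call (Kdr) and turned Stab1 to −0.09, Fcgr2b to 0.04 and Gpr182 to −0.14. Of the list genes, 5 of 119 were called with no filter (3.22% of all genes) and 1 of 105 with voom (1.59%).

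Same-numbered libraries did not deviate together (correlations of −0.039, 0.0688 and 0.0174), so the numbers do not pair the mice. With the replicate block 0 of the 10 and 3 list genes were called, the median log2 fold change was −0.04 and Stab2 turned to 0.03. With the replicate block and the GC offset together 1 was called (Kdr, −0.63), Fcgr2b was 0.04 and Gpr182 −0.12.

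A pair of fits was chosen after seeing the data. With the GC offset and without vehicle replicate 3 the median was 0.06, 1 transcript had groups that did not overlap (22.4% of all genes) and 1 of 107 list genes was called (5.21%). Stab2 was then 0.18, Clec4g 0.07, Pecam1 0.05, Oit3 0.22 and Fcgr2b 0.17. Without vehicle replicates 2 and 3, where the lone vehicle library is assumed to vary like the insulin libraries, 1 was called (Stab1, 0.46), 1 did not overlap (47.8% of all genes) and the median was 0.02, with Stab2 at 0.14, Lyve1 at 0.01, Oit3 at 0.04 and Ehd3 at 0.24. The cause of these changes was not tested. With 3 mice a group, the median SE of 0.32 on the log2 scale limits which differences could be seen.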
